A study of Mus musculus with 2 samples.

Results

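The microRNAs Mir532, Mir188, Mir501, Mir500 and Mir362 are 5 hairpins of a cluster in an intron of Clcn5 on the mouse X chromosome, and their levels were read in the embryonic heart. The genes were chosen by name: 6 were listed, and 5 of them were found by their GENCODE M21 symbol among the 1973 microRNA gene rows of the count tables. The sixth, Mir660, was not analysed here, so values given for the cluster are those of the 5 genes found. The samples were whole hearts of embryonic day 12.5 from the C57BL/6-derived strain B6NCrl, males and females pooled, with no treatment or altered allele in the labels. They form 1 group of 2 biological replicates with 1 library of microRNA-sized RNA each, so there is no contrast between conditions. The labels name a separate biosample but the same donor entry for both libraries, and do not say whether the embryos came from separate litters, so the spread between replicates may be smaller than that between litters.

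An intronic microRNA is cut as a hairpin from the transcript that carries it, by Drosha in the nucleus and then by Dicer, and yields a mature strand from its 5′ arm, its 3′ arm or both. The mature strand guides an Argonaute protein to messenger RNAs, mainly through its seed, bases 2 to 8. The host, Clcn5, encodes an endosomal chloride/proton exchanger best known from the kidney proximal tubule, where its human counterpart is mutated in Dent disease. Among the cluster's products, miR-188 is known in mice from the choice of bone marrow cells between bone and fat and from cardiac autophagy. miR-501 is known in mice from muscle regeneration and from synapses, and miR-362 and miR-500 mainly from human tumours. miR-532 is known from human melanoma and, in mice, from cardiac endothelial cells.

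On the mouse assembly GRCm38, the same as mm10, all 5 hairpins lie on the minus strand of chromosome X. In the direction of transcription the order is Mir532 (chrX:7248402-7248497), Mir188 (chrX:7247989-7248056), Mir362 (chrX:7241982-7242046), Mir501 (chrX:7241243-7241351) and Mir500 (chrX:7237683-7237774). Mir532 and Mir188 are 345 bases apart and Mir362 and Mir501 are 630 bases apart. A gap of 5942 bases separates Mir188 from Mir362, and 3468 bases separate Mir501 from Mir500, so that the 5 hairpins span 10815 bases. Of the 5 Clcn5 transcripts in GENCODE M21, 3 carry the cluster in 1 intron of 103648 bases. This is intron 3 of Clcn5-202 and Clcn5-204 and intron 2 of Clcn5-203. The other 2 transcripts do not include it, and no hairpin overlaps a Clcn5 exon. Clcn5 messenger RNA was not measured here.

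The mature sequences below, from RefSeq on GRCm38.p6, show which products of the cluster share a seed, with the seed in capitals. They cover all 5 genes, but miR-532-5p was not available here, so its seed was not compared.
miR-532-3p: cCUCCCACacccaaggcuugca
miR-188-5p: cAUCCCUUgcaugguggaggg
miR-188-3p: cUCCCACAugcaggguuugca
miR-362-5p: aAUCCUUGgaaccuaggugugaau
miR-362-3p: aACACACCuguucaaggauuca
miR-501-5p: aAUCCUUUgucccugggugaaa
miR-501-3p: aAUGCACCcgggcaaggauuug
miR-500-5p: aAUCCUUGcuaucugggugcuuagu
miR-500-3p: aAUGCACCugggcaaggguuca

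These 9 mature sequences hold 7 different seeds, of which 2 occur in a pair of members. The seed AUGCACC is shared by miR-501-3p and miR-500-3p, and AUCCUUG by miR-362-5p and miR-500-5p. The sequences of miR-501-3p and miR-500-3p match at 18 of 22 positions. They differ by C9U, A18G, U21C and G22A, with the miR-501-3p base first and positions counted from 1 at the 5′ end, all outside the seed. The seed of miR-501-5p, AUCCUUU, is close to that of miR-362-5p and miR-500-5p but not the same. miR-532-3p and miR-188-3p share the run CUCCCACA, but it starts at a different position in each, so their seeds are offset.

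Among 1738 mature sequences in the RefSeq table, 2 from genes outside the cluster carry a seed of the member sequences shown above. miR-329-3p, from the imprinted Dlk1-Dio3 region on chromosome 12, has the seed of miR-362-3p, and miR-7061-3p, from chromosome 7, has that of miR-188-5p. They are shown for comparison with the members.
miR-329-3p: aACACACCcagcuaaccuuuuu
miR-7061-3p: uAUCCCUUuuauuuccuuuuag

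The hairpins of Mir501 and Mir500 resemble each other most, with 67.3% identity in a global alignment. Identities of the other 9 pairs lay between 43.1% and 57.3%. The longest run of bases common to Mir501 and Mir500, in capitals in the hairpins below, is 14 bases, and it covers the start of the 5′ mature strand.
Mir501 hairpin: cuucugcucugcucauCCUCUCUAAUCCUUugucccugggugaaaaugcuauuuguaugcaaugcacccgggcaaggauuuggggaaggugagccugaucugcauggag
Mir500 hairpin: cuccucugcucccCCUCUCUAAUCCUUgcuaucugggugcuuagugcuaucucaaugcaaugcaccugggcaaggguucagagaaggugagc

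Reads that fitted several places were given to no gene, which lowers genes with near-identical copies. None of the 5 hairpins shared more than 14 bases in a row with any of 2201 other microRNA transcripts in GENCODE M21, so no run of 22 bases, about the length of a mature strand, was common to a member and another microRNA hairpin. The comparison was with microRNA hairpins and not with the whole genome.

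Replicate 2 held 10601121 reads and replicate 1 held 9235580 reads, of which 5279908 and 4478599 matched a microRNA gene in sense. CPM stands for a gene's counts divided by its library's sense total and multiplied by 1e6. Genes of the heart muscle cell, Mir208a, Mir208b and Mir499, were all present and summed to 61924 and 63958 CPM in replicates 2 and 1. Of markers of other cell types, the red blood cell pair Mir451a and Mir144 summed to 1811 and 926 CPM in replicates 2 and 1, and the hepatocyte Mir122 stood at 32.4 and 181 CPM. The difference in the red blood cell sum lay in Mir451a, with 8825 and 3447 counts in replicates 2 and 1. Mir144 had 738 and 698 counts. Endothelial Mir126a was close in the 2 libraries (68770 and 67024 CPM). So were the sums of smooth muscle Mir143 and Mir145a (90499 and 88791 CPM) and of white blood cell Mir223 and Mir155 (322 and 310 CPM). Within the white blood cell pair, the log2 ratio of replicate 2 over replicate 1 was 0.22 for Mir155 and −0.10 for Mir223. In the smooth muscle pair it was 0.18 for Mir145a and 0.03 for Mir143. Of 5 neuronal genes in the tables, 3 had no count. These genes are copies of Mir124a and Mir9, and reads that fitted several places were not counted to them. Their low counts therefore do not show that neuronal microRNAs were absent. In whole tissue, fewer cells of a type and less of a microRNA per cell cannot be told apart.

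The cluster was expressed in the heart at a level that was nearly the same in the 2 libraries. Its 5 genes held 33093 sense counts in replicate 2 and 28109 in replicate 1. That is 6268 CPM, or 0.627% of all sense counts, in replicate 2 (95% exact binomial interval 0.620% to 0.634%), and 6276 CPM, or 0.628%, in replicate 1 (0.620% to 0.635%). The mean was 0.627% ± 0.000606 (SD, n = 2). Each library's share lay inside the other's counting interval. The intervals hold counting error only, as the reads carry no stated molecular identifiers.

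All 5 genes reached 10 CPM in both libraries, against 284 of the 1973 genes in the tables (14.4%). Those 284 are 39.9% of the 712 genes with a count. Mir532 and Mir188 also reached 1000 CPM in both libraries, as did 77 genes in all (3.90%, or 10.8% of those with a count). The median of the 5 gene means was 807 CPM, against 2.53 CPM over the 712 genes with a count. No read was counted on the opposite strand of any of the 5 hairpins, so the counts without regard to strand equalled the sense counts.

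Mir532, the first hairpin to be transcribed, was the highest. It had 15357 counts (2909 CPM) in replicate 2 and 13256 counts (2960 CPM) in replicate 1, and it ranked 41 among all genes by mean level. Mir188, its close neighbour, had 11462 counts (2171 CPM) in replicate 2 and 9434 counts (2106 CPM) in replicate 1, and ranked 59. Together these neighbours supplied most of the cluster's counts, with 46.8% ± 0.533 from Mir532 and 34.1% ± 0.759 from Mir188 (SD, n = 2).

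Mir501 followed at some distance, with 4020 counts (761 CPM) in replicate 2 and 3819 counts (853 CPM) in replicate 1. It ranked 91 and gave 12.9% ± 1.02 (SD, n = 2) of the cluster's counts. Mir501 thus had more hairpin counts than Mir500, the other member with the seed AUGCACC, and with Mir500 it summed to 1010 ± 66.2 CPM (SD, n = 2). The tables count reads per hairpin and not per arm, so this sum also holds any 5′ arm reads of these genes. Which gene gave more of the seed itself was not measured.

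Mir500 and Mir362 were the lowest. Mir500 had 1067 counts (202 CPM) in replicate 2 and 915 counts (204 CPM) in replicate 1, which gives 203 ± 1.57 CPM (SD, n = 2). Mir362 had 1187 counts (225 CPM) in replicate 2 and 685 counts (153 CPM) in replicate 1, which gives 189 ± 50.8 CPM (SD, n = 2). Mir500 was close to constant between the libraries, while Mir362 lay above Mir500 in replicate 2 and below it in replicate 1. They ranked 145 and 147 and supplied 3.24% ± 0.0219 and 3.01% ± 0.813 (SD, n = 2) of the cluster's counts.

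**Figure D1:**
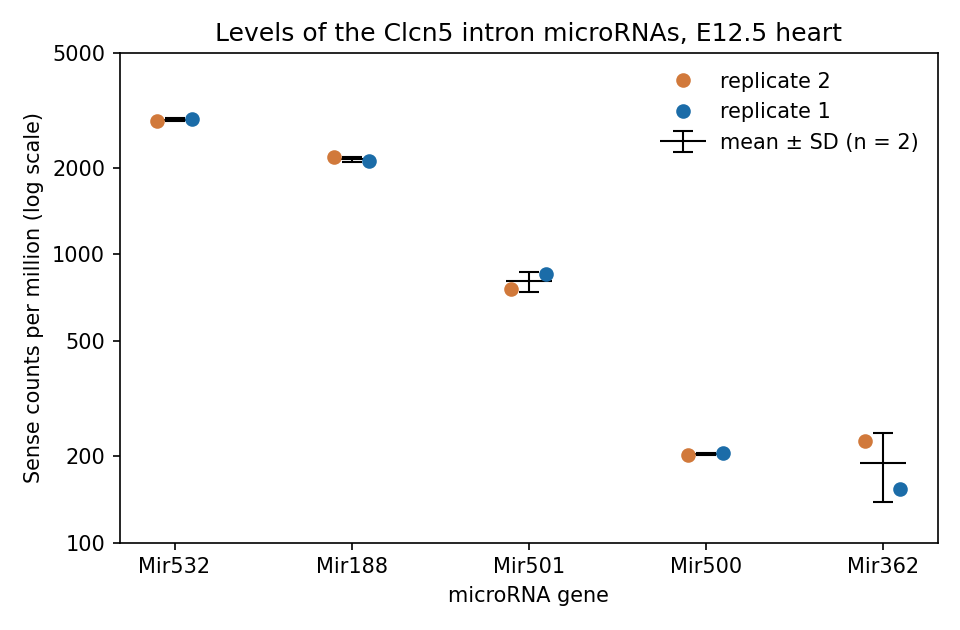
Level of each gene of the cluster in CPM of sense counts (log axis) in the 2 heart libraries, with points for replicates and bars for the mean ± SD (n = 2). Mir532 and Mir188 stand above the other genes, and Mir362, at 225 and 153 CPM in replicates 2 and 1, has the widest spread for its level.

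The order of the members held in both libraries for 9 of the 10 pairs. For these 9 the exact binomial intervals of the levels were also separate in each library. The intervals hold counting error only, so the order and the ratios below are those of read counts. How evenly the libraries captured different sequences was not measured. Mir532 exceeded Mir188 by a ratio of 1.37 ± 0.0462 (SD, n = 2). Mir188 exceeded Mir501 by a ratio of 2.66 ± 0.269 (SD, n = 2), and Mir501 exceeded Mir500 by a ratio of 3.97 ± 0.287 (SD, n = 2). The exception was Mir500 over Mir362, with a ratio of 0.899 in replicate 2 and 1.34 in replicate 1. Its mean of 1.12 ± 0.309 (SD, n = 2) does not separate these genes.

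Between the members with the highest and the lowest mean, Mir532 and Mir362, the ratio was 12.9 in replicate 2 and 19.4 in replicate 1, a mean of 16.1 ± 4.54 (SD, n = 2). Mir532 over Mir500, at 14.4 ± 0.0670 (SD, n = 2), varied far less. Reads of a mature strand do not grow in number with the hairpin around it, but the annotated hairpins run from 65 bases in Mir362 to 109 in Mir501. On the scale of CPM per hairpin base, Mir188 (68 bases) had a mean of 31.5 and Mir532 (96 bases) of 30.6. The mean order of these neighbours thus turned by a small margin, and no counting interval was computed on this scale. Mir362 likewise stood at 2.91 and Mir500 at 2.21, with a mean ratio of Mir500 over Mir362 of 0.789, and Mir532 over Mir362 was 10.9.

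Level did not simply decline with position along the intron. The first and second hairpins were the highest and the last was among the lowest, but Mir362, the third, stood at 189 CPM and Mir501, which lies only 630 bases behind it, at 807 CPM. Mir501 exceeded Mir362 by a ratio of 3.39 in replicate 2 and 5.58 in replicate 1.

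**Figure D2:**
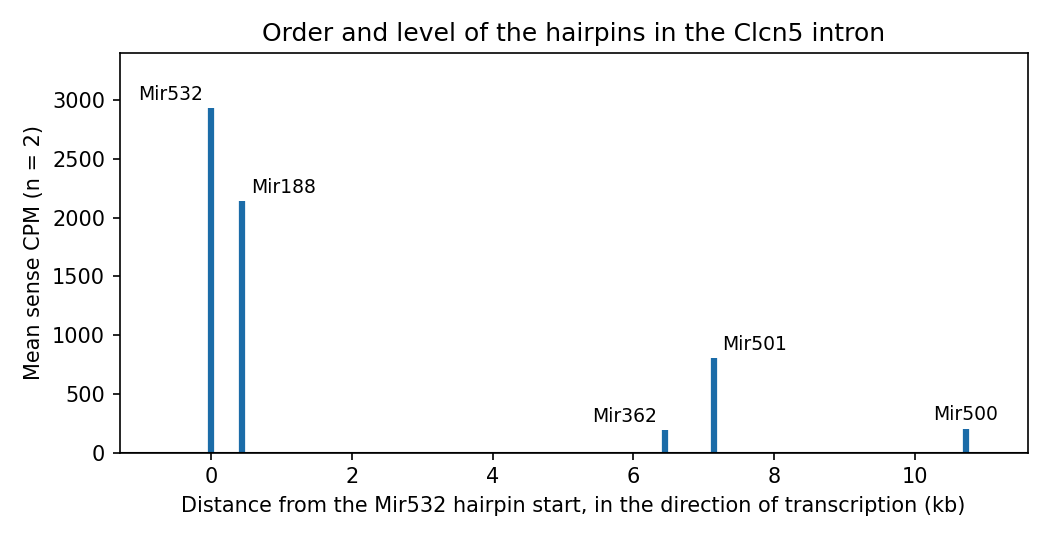
Mean level of each hairpin (sense CPM, n = 2) against its distance in kb from the start of the Mir532 hairpin, in the direction of transcription. Mir532 and Mir188 stand close together and high, and Mir501, at 807 CPM, stands above its neighbour Mir362, at 189 CPM.

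Between the 2 libraries, Mir362 was higher and Mir501 lower in replicate 2, while the other 3 genes had ratios close to 1. The ratio of replicate 2 to replicate 1 was 1.47 for Mir362 (95% counting interval 1.34 to 1.62) and 0.893 for Mir501 (0.854 to 0.934). It was 1.03 for Mir188 (1.00 to 1.06), 0.983 for Mir532 (0.960 to 1.01) and 0.989 for Mir500 (0.905 to 1.08). Without Mir362 the cluster's sum was 6043 CPM in replicate 2 and 6123 CPM in replicate 1. The differences, replicate 2 minus replicate 1, were 71.9 CPM for Mir362, 64.4 CPM for Mir188, −2.22 CPM for Mir500, −51.3 CPM for Mir532 and −91.3 CPM for Mir501, which nearly cancel in the sum.

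The counts of each gene in the 2 libraries were set against each other by an exact binomial test, adjusted by the Benjamini-Hochberg method over all 712 genes with a count, and the outcome was read as a description of these 2 libraries and not of conditions. With a minimum 2-fold ratio it called 0 of the 5 members, where it called 0.421% of all genes tested, and edgeR's exact test with the same limits also called 0 members, where it called 0.281% of all genes. Without a minimum ratio it called 2 of the 5, where it called 16.7% of all genes. Mir362 was called higher in replicate 2, as were 8.01% of all genes, and Mir501 lower, as were 8.71%. At an unadjusted p under 0.05, 3 of the 5 passed, where 23% of all genes did. Deep genes pass this test more easily, since it holds counting error alone: among the 172 other genes whose mean reached 100 CPM, 101 (58.7%) were called without a minimum ratio. With TMM scaling and no minimum ratio, Mir188 was called as well, where 16% of all genes were called. With no minimum ratio, edgeR's exact test, which adds a common spread between libraries, did not call Mir362 and Mir501. That spread was estimated from the same 2 libraries that the test compares, so the difference under test enlarges it. Few calls are therefore built in, with or without the 2-fold limit, and nothing is concluded from them. The TMM and edgeR settings with no minimum ratio were chosen after seeing the data.

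By the size of its ratio, Mir362 stood apart from the other members. The median absolute log2 ratio was 0.04 over the 5 members, against 0.20 over the 444 genes with at least 10 counts in total and 0.11 over the 172 other genes with at least 100 CPM. Mir362 had a log2 ratio of 0.56, and of the 177 genes with at least 100 CPM only 4 had a larger absolute ratio. These 4, named after their values were seen, were Mir122 (−2.48), Mir451a (1.12), Mir10b (−0.67) and Mir181b-2 (0.58). The log2 ratios of Mir188 (0.04), Mir532 (−0.03) and Mir500 (−0.02) were exceeded by 137, 155 and 159 of these 177 genes. Of the markers given above, Mir451a of red blood cells and Mir122 of hepatocytes thus differed between the same libraries. The other red blood cell marker, Mir144, had a log2 ratio of −0.16 and was not called. The part of these cell types in the ratio of Mir362 was not tested.

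**Figure D3:**
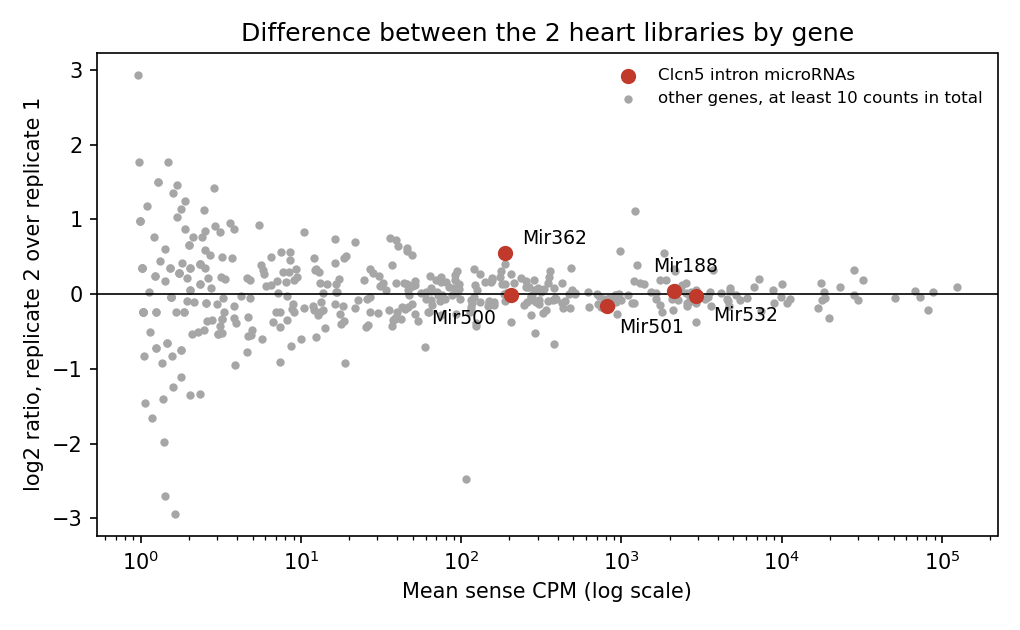
log2 ratio of replicate 2 over replicate 1 against mean sense CPM (log axis) for genes with at least 10 counts in total and a count in both libraries, with the cluster's genes in red. Mir362, at 0.56, lies above its neighbours in level, and Mir188, Mir532 and Mir500 lie near 0.

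Of the 2 outside genes that share a seed with the member sequences shown, Mir329 was measured. It had 987 counts (187 CPM) in replicate 2 and 717 counts (160 CPM) in replicate 1, a mean of 174 ± 19.0 CPM (SD, n = 2). Mir362, whose 3′ arm carries the same seed ACACACC, stood at 189 ± 50.8 CPM (SD, n = 2), a difference smaller than its spread. Mir362 lay above Mir329 in replicate 2 and below it in replicate 1. These are counts per hairpin, so the level of the seed from each gene was not measured. Mir7061, which carries the seed of miR-188-5p, was not analysed here.

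The 3 genes whose levels in the 2 libraries lay nearest to those of Mir532, by distance in log2(CPM + 1), were Mir503, Mir379 and Mir298. Mir503 stood at 2956 CPM in replicate 2 and 2846 CPM in replicate 1 (distance 0.06). Mir379 had 2792 CPM in replicate 2 and 3041 CPM in replicate 1 (distance 0.07), and Mir298 had 2757 CPM in replicate 2 and 2710 CPM in replicate 1 (distance 0.15). With 2 libraries of 1 tissue this is likeness in level alone.

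The X chromosome carried 120 microRNA genes in the tables, of which 34 (28.3%) reached 10 CPM in both libraries, and 62 had no count. The Clcn5 cluster provided 4.58% of the sense counts of X-linked microRNA genes in replicate 2 and 4.36% in replicate 1. Genes on 1 strand with gaps of at most 10 kb formed 14 clusters on this chromosome, and the Clcn5 cluster was the second highest by summed level, at 6272 ± 6.06 CPM (SD, n = 2). The cluster of Mir322, known from cell cycle control, was higher at 117069 ± 3850 CPM, and that of Mir98 and Mirlet7f-2, of the let-7 family, was lower at 2020 ± 126 CPM (SD, n = 2 each). The cluster of Mir421 and Mir374b stood at 742 ± 8.15 CPM (SD, n = 2). The differences of the Clcn5 cluster from these 3 were many times their spread between replicates.

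Within the Clcn5 cluster the highest gene mean was 15.5 times the lowest. The corresponding ratio was 2429 in the Mir322 cluster, from Mir322 at 82265 CPM to Mir450-2 at 33.9 CPM. It was 6.44 from Mir98 at 1748 CPM to Mirlet7f-2 at 272 CPM, and 1.47 from Mir421 at 442 CPM to Mir374b at 299.9 CPM. Mir450-2 and Mirlet7f-2 have a further copy of the same name stem, and reads that fitted several places were not counted to them, so their levels are uncertain. No member of the Clcn5 cluster has such a copy.

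**Figure D4:**
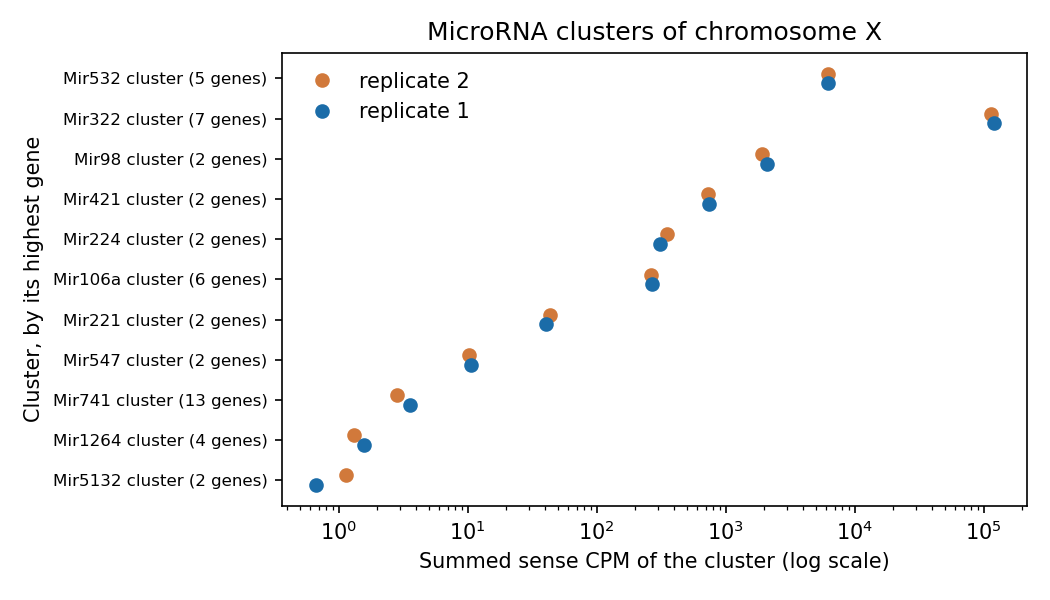
Summed sense CPM (log axis) of each chromosome X microRNA cluster with a count, named by its highest gene, with points for the 2 libraries and the Clcn5 cluster in the top row. The Clcn5 cluster, at 6268 and 6276 CPM in replicates 2 and 1, lies below the Mir322 cluster and above the other clusters shown.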

How the data were processed

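The authors deposited raw read counts for each microRNA gene, made from 1 alignment per library on mm10 with annotation M4, per the descriptions beside the tables and the labels. Neither aligner nor counter is given in the sources used here. The 3 count columns have no names, and sense, antisense and combined counts were told apart by their sums. The 4 rows that name no gene (50.2% of reads in replicate 2 and 51.5% in replicate 1, with reads that fitted several places at 25.3% and 27.1%) stayed out of library sizes. Of 1973 gene rows, 1894 had a GENCODE M21 identifier.

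CPM used the sum of sense counts. Intervals are exact binomial at 95%. A count of 0 allows up to 3 counts, or 0.568 CPM in replicate 2 and 0.670 in replicate 1. The exact binomial test, with an adjusted p of 0.05 and 2-fold minimum, was checked first on simulated data that held counting error only. That check does not show how the test behaves with further spread between libraries. Alternatives changed the strand column, denominator, scaling (TMM of edgeR 4.0.16, DESeq2 1.42.0, R 4.3.3), length, filter, test and replicates. Python 3.11.15, scipy 1.17.1 and pandas 2.3.3 were used. A chi-square of 24189 (443 degrees of freedom, 444 genes) over the counts showed that the libraries differ beyond sampling noise. Named genes were the members, genes elsewhere with a member's seed, the 3 genes nearest to the highest member, the highest and lowest gene of the 3 highest other X clusters, and marker genes. The members, lists and tests were chosen with earlier results of these data known.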

Additional observations from a re-analysis of the deposited data

How the results depend on the processing

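Changes of denominator moved the levels. The share of the cluster was 0.600% with counts without regard to strand and 0.308% of all reads, and the median member level was 396 CPM of all reads. Per hairpin base the mean ratio of Mir532 to Mir362 was 10.9, and the mean of Mir532 over Mir188 turned to 0.972. The binomial test without a minimum ratio called 119 genes, against 3 with it. TMM scaling, DESeq2 size factors and a minimum of 10 counts kept the count of 3 within 1.5 times. The edgeR exact test cannot serve as a check here, because its spread was estimated from the libraries it compares. Leaving out each replicate in turn gave shares of 0.627% to 0.628%, median levels of 761 to 853 CPM, ratios of Mir532 to Mir362 of 12.9 to 19.4, and rank 2 among X clusters each time. That rank was also 2 without genes that have a further copy. No paired analysis was possible because there is 1 group. With 2 libraries the spread rests on 1 difference per gene, and depth does not limit the members, whose lowest count was 685.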
